A study of Mus musculus with 14 samples.

Results

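The transmembrane mucins studied here were Muc1, Muc3, Muc4, Muc13, Muc16 and Muc20, and their members were the non-control probes carrying 1 of these 6 gene names on a mouse expression array of 55681 probes. Of the 6 genes, 5 had a probe (7 probes in all), and no probe was named Muc3, which was not analysed here. The family was selected on the level of Muc13 in the CT26 cell line, where it was lowest relative to the tissues. Every value in CT26, and every comparison of Muc13 with colon, is therefore given as a description with no test. The choice read levels across all 5 groups, so the Muc13 tests between the other tissues use arrays that entered it. RNA was measured on one-colour Agilent arrays, 1 array per sample, in 14 samples of 5 groups. Healthy small intestine (3 arrays) and colon (3 arrays) were labelled as C57BL/6J mice, adenomas (3 arrays) and tissue adjacent to adenomas (2 arrays) as APCmin/+ mice. No experimental agent is named for any group, and the methods state that APCmin/+ mice in distress received the analgesic buprenorphine. APCmin/+ mice carry a germline truncating mutation in 1 copy of Apc, a brake on Wnt signalling, in all of their cells, and they develop adenomas mostly in the small intestine. CT26 (3 arrays) is a single line of cultured colon carcinoma cells from a BALB/c mouse, so strain, culture and tumour cannot be told apart in it. The study's sample list places all adenoma and adjacent pieces under a single mouse, and it places part of the colon pieces under an APCmin/+ mouse although the labels do not. The p-values below therefore measure the spread between arrays, which for adenomas and adjacent tissue was a spread between pieces of tissue.

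Mucins are proteins whose long stretches of serine and threonine carry dense O-linked sugars. The secreted ones form the mucus gel, whereas the transmembrane ones stay anchored in the apical membrane, where they build the glycocalyx over the microvilli and can signal through short cytoplasmic tails. In the intestine MUC13 is an abundant transmembrane mucin of enterocytes and goblet cells, MUC4 is a ligand of the receptor ERBB2, MUC1 is a widely expressed epithelial mucin with a signalling tail, MUC20 associates with the receptor MET, and MUC16 is the carrier of the CA125 antigen and a product of mesothelium.

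The results turn on 4 probes, whose first 30 bases are shown because each probe reads a single 60-base stretch of a transcript. All positions are in mm9, as the array files give them.
Muc13, chr16:33819909-33819968, plus strand: cctcgtgtctgtctgacgtctggtcctctc
Muc4, brighter probe, chr16:32782278-32782337, plus strand: catggtggccaaatatacagatggatgggt
Muc4, dimmer probe, chr16:32774896-32774955, plus strand: ctaacttgtcatgggtactccagcccaaga
Muc20, chr16:32786143-32786202, minus strand: gctgacctcttttcagagatgtccctcaca
Muc4 and Muc20 are neighbours on opposite strands of chromosome 16, which also holds Muc13. A second Muc20 probe (chr16:32777512-32777571, minus strand) lay between both Muc4 probes and was well above background on 0 of 14 arrays, so it gave no level. The Muc16 probe was at chr9:18299899-18299958 on the minus strand and the Muc1 probe at chr3:89034965-89035024 on the plus strand. Exon and UTR annotation in this build was not used here. No spot of these probes was saturated.

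Levels are log2 of the processed signal minus the 75th percentile of the same array, so 0 stands for that percentile. Levels of different probes are not set against each other. On the arrays 46.8% to 58.2% of probes were well above background. Colon replicate 3 stood apart from the other colon arrays. The median level of 10 small intestinal enterocyte genes was 5.19 on it, against −2.38 and −2.16 on colon replicates 1 and 2, and the median of 9 colonocyte genes was −0.10, against 6.44 and 5.61. Results that rest on the colon arrays are therefore given with and without it, and the CT26 values with colon as a whole are followed by those without it. The labels name no gut region for adenomas and adjacent tissue. Their colonocyte medians were −0.35 to −0.10 and 0.68 to 1.18, against −3.03 to −1.315 in small intestine. Their enterocyte medians were 4.18 to 4.89 and 6.17 to 6.22, against 5.91 to 7.79. The part of gut region in the comparisons was not tested. The 10 epithelial genes, among them Epcam, Cdh1 and Krt8, had medians from 6.52 to 8.15 on the 11 tissue arrays. In CT26 their medians were −6.75 to −6.33 with 3 to 4 of the 10 genes well above background, and Epcam, Cdh1 and Krt19 were not well above background on any of the 3 CT26 arrays.

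Muc13 was the gene on which the family was picked. Its level was 8.83, 9.39 and 9.49 in small intestine, 7.999 and 8.61 in adjacent tissue, 7.01, 7.14 and 7.06 in adenomas, 8.60, 8.32 and 9.92 in colon, and −4.08, −4.23 and −3.91 in CT26. The adenoma arrays lay below every other tissue array, the adjacent arrays below the small intestine arrays, and the CT26 arrays far below all tissues. In the order small intestine, colon, adjacent tissue, adenoma and CT26, the first 3 groups overlapped with their neighbours. The Muc13 probe was well above background on all 3 CT26 arrays, but close to the detection limit. The lowest signals well above background on CT26 replicates 1, 2 and 3 were −4.589, −5.175 and −5.173.

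The Muc4 probes followed the opposite order in small intestine, adjacent tissue and adenomas. On the brighter probe the level was 1.84, 1.98 and 1.78 in small intestine, 3.11 and 3.83 in adjacent tissue, 4.38, 4.45 and 4.54 in adenomas, and 3.52, 4.94 and 2.57 in colon. All adjacent arrays lay above all small intestine arrays and all adenoma arrays above both, while the colon arrays ran from below the adjacent arrays to above the adenoma arrays. In CT26 the brighter probe was not well above background on any array, and the dimmer probe (−3.76, −5.19 and −4.78) on 1 of 3. The dimmer probe gave the same order of the 5 group means, and both probes had a Pearson correlation of 0.981 over the 11 tissue arrays, a description in which the points share their arrays and groups.

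Muc20 separated adenomas from small intestine and adjacent tissue. It was at −2.76, −2.92 and −2.51 in small intestine, −2.51 and −2.41 in adjacent tissue and −0.67, −0.39 and −0.74 in adenomas. Colon ran from −2.78 on replicate 1 through −0.96 on replicate 2 to −0.11 on replicate 3, so that it reached over both of these ranges. In CT26 it was −2.58, −3.03 and −2.77, overlapping with small intestine, and well above background on all 3 arrays.

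Muc16 varied most within small intestine and adjacent tissue (SD 1.57 and 1.65). It was at −1.92, −0.06 and −3.17 in small intestine and −1.93, −3.54 and −1.04 in colon, well above background on all 6 of these arrays. In adjacent tissue it was at −3.50 and −5.83, in adenomas at −5.64, −5.34 and −4.94 and in CT26 at −5.38, −5.60 and −6.14. Only 1 of 2 adjacent arrays, 1 of 3 adenoma arrays and 0 of 3 CT26 arrays were well above background. Muc1 was close to the detection limit throughout: 2 of 3 colon arrays and 1 of 3 adenoma arrays were well above background and no array of the other groups, so Muc1 entered no test.

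**Figure D1:**
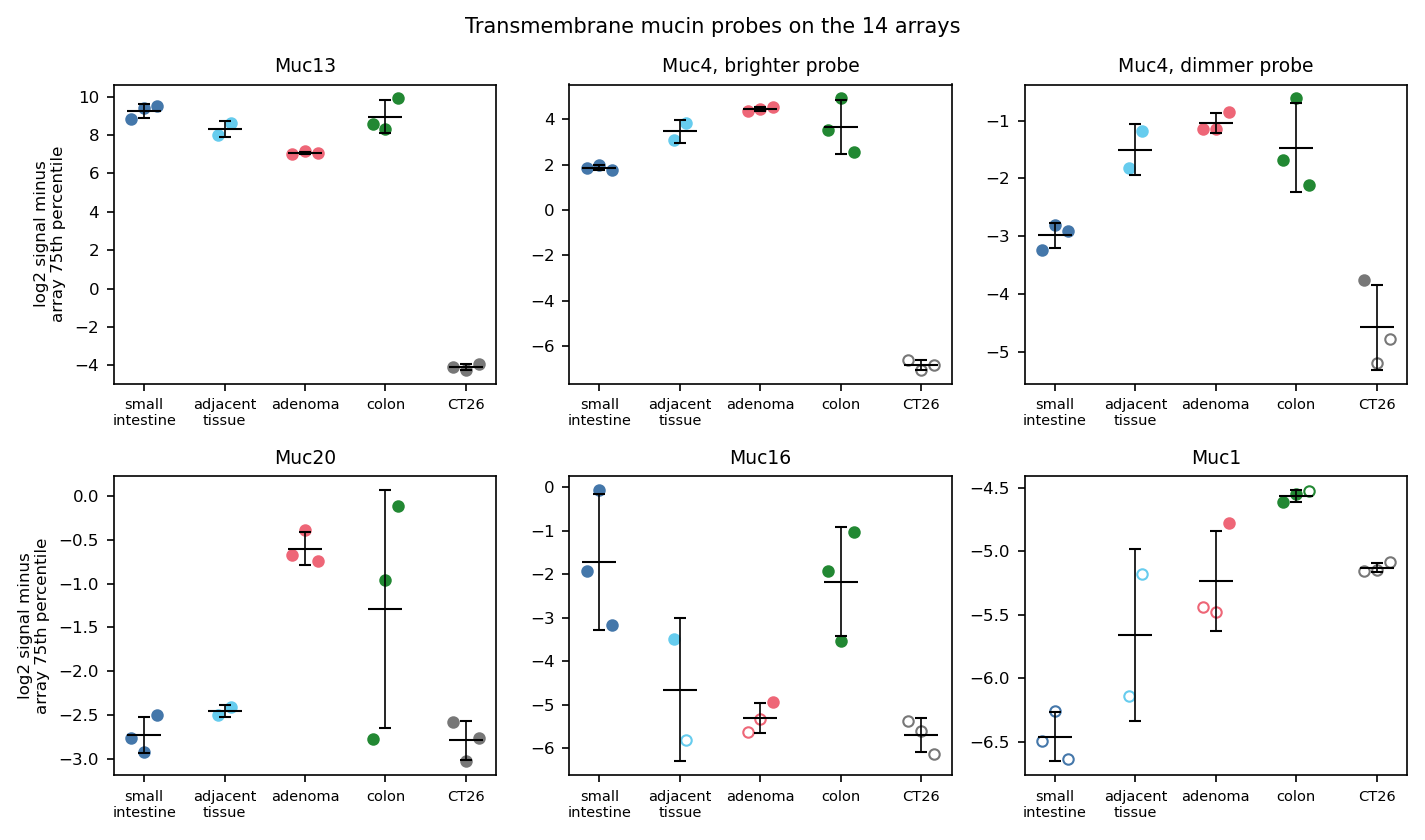
Level of each transmembrane mucin probe (log2 signal minus the array's 75th percentile, y axis, a separate scale in each panel) on each array of the 5 groups. Filled points were well above background on that array and open points were not, and bars are the group mean ± SD (n = 3, adjacent tissue n = 2). Muc13 falls from 7.01 or more on all tissue arrays to −3.91 or less in CT26, and Muc4 and Muc20 are higher in adenomas than in small intestine.

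The comparison of adenomas with healthy small intestine asked how tumour tissue of APCmin/+ mice differs from small intestine of C57BL/6J mice. All 4 members tested were called, which required a log2 difference of at least 1.2 in size and an adjusted p of at most 0.01 in limma. Muc4 and Muc20 were higher and Muc13 and Muc16 lower, while among 22183 genes tested 12.2% were called higher and 12.1% lower. Muc13, on which the family was picked, is among these 4. Muc16 entered through small intestine alone, and 3 members were called where both groups had to be above background. Muc4 rose from 1.87 ± 0.10 (SD, n = 3) to 4.45 ± 0.08 (SD, n = 3), a log2 difference of 2.58 ± 0.15 (SE) or 5.99-fold (limma adjusted p = 9.13e-05). The dimmer Muc4 probe rose by 1.94 (limma adjusted p = 0.000349). Muc20 rose from −2.73 ± 0.21 (SD, n = 3) to −0.60 ± 0.19 (SD, n = 3), a log2 difference of 2.13 ± 0.19 (SE) or 4.38-fold (limma adjusted p = 0.000256). For these probes the groups did not overlap. The difference within slides 1 and 2 was 2.64 and 2.46 for Muc4 and 1.93 and 2.54 for Muc20.

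Muc13 fell from 9.23 ± 0.36 (SD, n = 3) to 7.07 ± 0.07 (SD, n = 3), a 4.48-fold difference with a 95% confidence interval from −2.67 to −1.67 on the log2 scale (limma adjusted p = 0.000376). Within slides 1 and 2 the difference was −2.12 and −2.24. In bulk tissue, fewer cells of a type and less RNA per cell cannot be told apart. The medians of the epithelial genes were 7.37 to 8.15 in small intestine and 6.52 to 6.92 in adenomas, and those of the enterocyte genes 5.91 to 7.79 and 4.18 to 4.89. Goblet cell genes had medians from 8.31 to 8.68 in small intestine and from 7.41 to 7.94 in adenomas. The part of these cell types in the fall of Muc13 was not tested.

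Muc16 fell by 3.59 ± 0.71 (SE) on the log2 scale (limma adjusted p = 0.00603), and the difference was −2.74 within slide 1 and −5.28 within slide 2. Muc16 entered this test through small intestine alone, as only 1 of 3 adenoma arrays was above background, so its p is set in part against background. With each adenoma array read at the lowest signal well above background where the probe was below it, the difference was at least 9.01-fold, or 5.07-fold without small intestine replicate 2. Leaving out 1 array moved the log2 difference between −4.32 and −2.76. Where both groups had to be above background, 3 members were tested and called, without Muc16. This call was lost with other processing, with the authors' normalized table (log2 difference −1.71, limma adjusted p = 0.0369), and when any single adenoma array was left out (limma adjusted p = 0.0175 to 0.0253) or small intestine replicate 1 (0.0118).

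Within small intestine, colon and adjacent tissue, Muc16 and the median of 8 mesothelial genes put the arrays in the same order. The median was −2.59, −0.86 and −3.64 on small intestine replicates 1, 2 and 3, −4.91 and −6.61 in adjacent tissue and −3.24, −4.78 and −2.85 in colon. Of the 8 genes, 6 to 7 were well above background in small intestine, 4 to 7 in colon and 3 in adjacent tissue. The adjacent medians therefore rest on undetected genes, and their order says little. In adenomas, where the medians were −6.95 to −6.30 and 2 to 3 of the 8 genes were well above background, the order was not the same. Among 14652 candidates the gene most like Muc16 was Wt1, a transcription factor of mesothelium, with a Pearson correlation of 0.970 over the 11 tissue arrays. Nkain4 (0.948) and Igfbp6 (0.938) came next. Wt1 is also in the list of 8 mesothelial genes. Wt1 was well above background on all small intestine and colon arrays and on none of the adjacent, adenoma and CT26 arrays. Mesothelin (Msln), the binding partner of MUC16 on the mesothelial surface, was well above background on all 14 arrays and highest in CT26 (5.28, 5.59 and 6.12), where Muc16 was not detected. The part of mesothelium in the Muc16 difference was not tested.

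**Figure D2:**
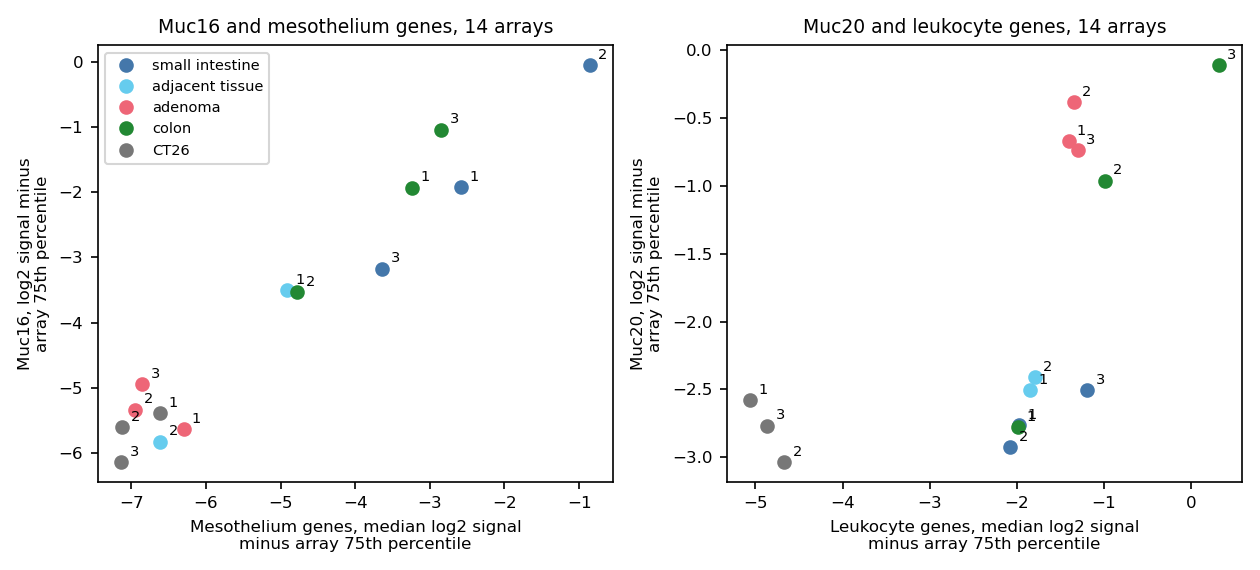
Level of Muc16 against the median level of 8 mesothelial genes (left) and level of Muc20 against the median level of 10 leukocyte genes (right), both axes in log2 signal minus the array's 75th percentile, on the 14 arrays, numbered by replicate. Muc16 and the mesothelial genes are both highest in small intestine replicate 2 (−0.06 and −0.86), and Muc20 and the leukocyte genes are both highest in colon replicate 3 (−0.11 and 0.32).

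The comparison of adenomas with adjacent tissue asked what separates the tumour from the tissue beside it. Of 3 members tested, 1 was called higher and 0 lower, against 2.64% of genes called higher and 2% lower. Muc20 rose by 1.86 ± 0.17 (SE) on the log2 scale, or 3.63-fold (limma adjusted p = 0.00462), and all 3 adenoma arrays lay above both adjacent arrays. This call sat close to the threshold. With the slide as a block the difference was 1.90 (limma adjusted p = 0.0106), and it was 1.80 within slide 1 and 2.02 within slide 2. Muc13 differed by −1.23 ± 0.22 (SE) (limma adjusted p = 0.0183) and Muc4 by 0.98 ± 0.24 (SE) (limma adjusted p = 0.0409), neither past the threshold, although the adenoma and adjacent arrays did not overlap for either. Within slides 1 and 2 Muc13 differed by −0.96 and −1.47 and Muc4 by 1.35 and 0.62. The dimmer Muc4 probe differed by 0.46 (limma adjusted p = 0.215).

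The comparison of adjacent tissue with small intestine of C57BL/6J mice asked whether tissue near adenomas already differs. No member was called, against 0.00921% of genes called higher and 0% called lower. Of the 4 members tested with limma, 3 had an unadjusted p under 0.05, as did 8749 of the 28824 probes tested. Muc16, among them, entered this test through small intestine alone. Muc4 differed by 1.60 ± 0.27 (SE) (limma adjusted p = 0.0514) and its dimmer probe by 1.49 (0.0558). Muc13 differed by −0.93 ± 0.31 (SE) (limma adjusted p = 0.118) and Muc16 by −2.94 ± 1.05 (SE) (limma adjusted p = 0.132). The Muc16 value was uneven, with 1 of 2 adjacent arrays above background, a bound of 4.93-fold, differences of −0.95 within slide 1 and −5.77 within slide 2, and a range from −4.11 to −1.78 when 1 array was left out. Muc20 differed by 0.27, with a 95% confidence interval from −0.27 to 0.82 (limma adjusted p = 0.429). With 2 adjacent arrays these intervals were wide.

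The small intestine is compared with the colon to give the regional difference in tissue outside tumours, against which the tumour can be set. In colon against small intestine none of the members tested was called, against 0.00482% of genes called in each direction. With limma 1 of 3 members tested had an unadjusted p under 0.05, as did 6413 of the 27287 probes tested. Muc4 differed by 1.81 ± 0.57 (SE) (limma adjusted p = 0.140), with all colon arrays above all small intestine arrays, and by 3.12 within slide 1 and 1.06 within slide 2. Muc20 differed by 1.45 ± 0.65 (SE) (limma adjusted p = 0.235) and Muc16 by −0.45 ± 0.92 (SE) (limma adjusted p = 0.791), with overlapping arrays. Muc13 differed by −0.29, given with no test.

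Without colon replicate 3 the Muc4 difference was 2.36 ± 0.43 (SE) (limma adjusted p = 0.0145). Muc20 then differed by 0.86 (0.264), Muc16 by −1.02 (0.448) and Muc13 by −0.78. With that array left out Muc1 was well above background on both remaining colon arrays, entered the test and was called higher in colon (limma adjusted p = 0.00453). It entered through colon alone, with 0 of 3 small intestine arrays above background, so the p is set against background and no size is given.

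In adenomas against colon 0 of 3 members tested with limma were called, while 2.29% of genes were called higher and 1.74% lower. An unadjusted p under 0.05 was found for 1 of the 3 members and for 8269 of the 29165 probes tested. Muc16 differed by −3.14 ± 0.63 (SE), at least 6.58-fold against the detection limit of the adenoma arrays (limma adjusted p = 0.0287), of which 1 of 3 was above background. Without colon replicate 2 it differed by −3.82 and was called (limma adjusted p = 0.00937), and without colon replicate 3 it differed by −2.57, at least 4.45-fold (0.0153). Muc4 differed by 0.78 ± 0.57 (SE) (limma adjusted p = 0.433), by 0.23 without colon replicate 3, and by −0.48 within slide 1 and 1.40 within slide 2. Muc20 differed by 0.69 ± 0.66 (SE) (limma adjusted p = 0.550), by 1.27 without colon replicate 3 and by −0.06 without colon replicate 1. Muc13 differed by −1.88, or −1.39 without colon replicate 3, given with no test.

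**Figure D3:**
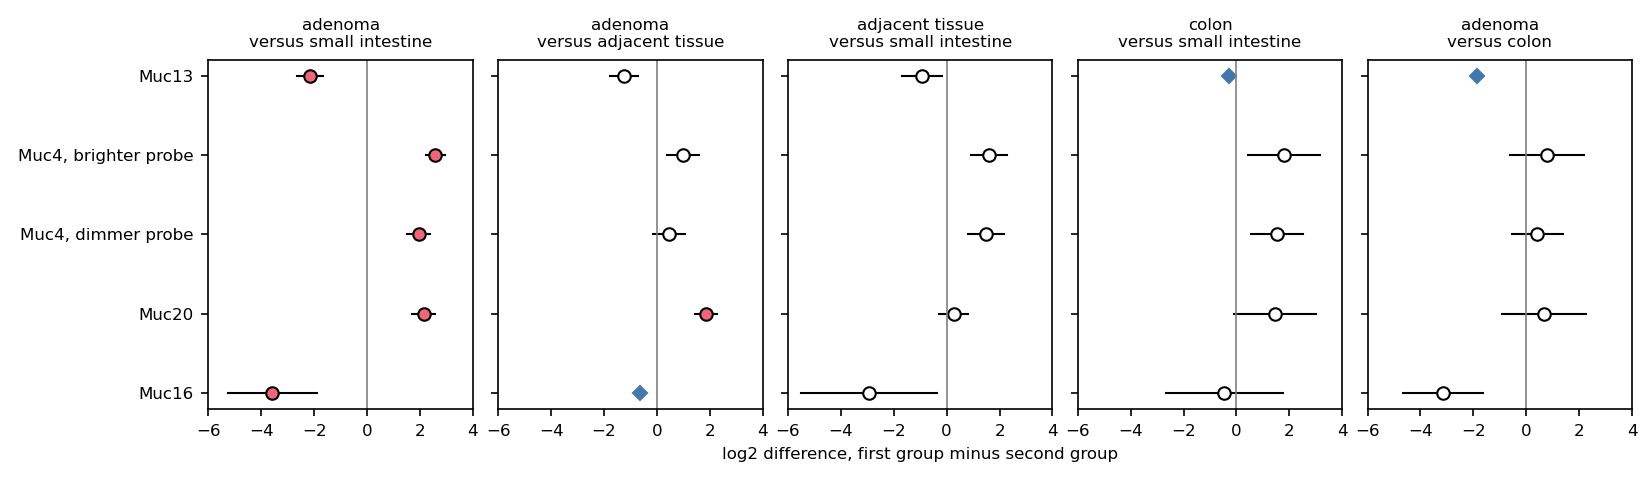
Log2 difference of each mucin probe (x axis, first group minus second group) in the 5 tested comparisons. Circles with bars are limma estimates with 95% confidence intervals, red where past both thresholds, and diamonds are differences of means given with no test. The 5 probes tested between adenomas and small intestine are all red, and among the other comparisons the 1 red point is Muc20 in adenomas against adjacent tissue.

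Muc13 and Muc4 ran in opposite directions over the tissue arrays (Pearson correlation −0.777 over 11 arrays, a description in which 3 groups of pieces stand apart). Small intestine combined a high Muc13 level with the lowest Muc4, and adenomas combined the lowest Muc13 with a Muc4 level of 4.38 to 4.54. Colon replicate 3, the array with enterocyte genes, had the highest Muc13 of all and the lowest Muc4 of the colon arrays. The genes most like Muc13 over the tissue arrays were Prkce (0.978), Tap2 (0.978) and Ptprr (0.977), and those most like Muc4 were Atp11a (0.983), Nsmaf (0.978) and Myo1c (0.974).

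**Figure D4:**
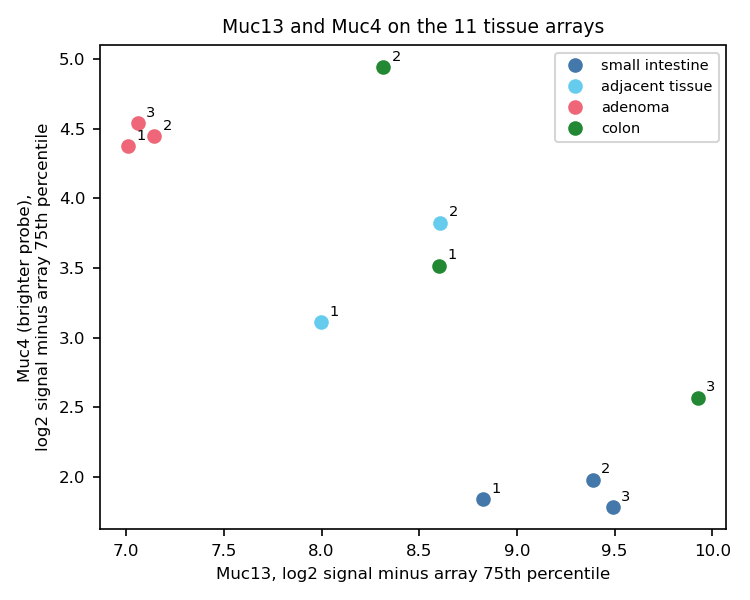
Level of Muc13 (x axis) against that of the brighter Muc4 probe (y axis), both in log2 signal minus the array's 75th percentile, on the 11 tissue arrays, numbered by replicate. The adenoma arrays sit at the upper left (Muc13 at 7.01 to 7.14) and the small intestine arrays at the lower right (Muc4 at 1.78 to 1.98).

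The genes most like Muc20 over the tissue arrays were Cars (0.967), Lcp1 (0.939), an actin-bundling protein of leukocytes, and Prss16 (0.930). The medians of 10 leukocyte genes were −1.98, −0.99 and 0.32 on colon replicates 1, 2 and 3, in the order of Muc20. They were −1.41 to −1.30 in adenomas, −1.85 to −1.80 in adjacent tissue and −2.07 to −1.19 in small intestine, where the ranges of adenomas and small intestine overlapped although those of Muc20 did not. Of the 10 genes, 3 had all adenoma arrays above all small intestine arrays, as Muc20 did, 5 had them all below, and 2 overlapped. The higher ones were S100a8 and S100a9, neutrophil calcium-binding proteins, at −1.01 to −0.75 and 1.28 to 1.69 in adenomas and −6.36 to −5.89 and −4.92 to −4.02 in small intestine, and Cd68, a macrophage gene. Ptprc, which marks all leukocytes, was among the lower ones, at −2.90 to −2.47 in adenomas and −1.68 to −0.82 in small intestine. The part of leukocytes in the Muc20 values was not tested.

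CT26 was the setting in which the family was chosen, and its values are descriptions. Relative to colon the median of all probes lay 0.37 higher in CT26, and 30.8% of genes were past 1.2 higher and 21.7% past 1.2 lower. Against colon, 4 of the 5 genes with a probe were past 1.2 lower and 0 higher, but the rule used this contrast and nothing is read from that count. Muc13 in CT26 differed from colon by −13.02 on the log2 scale (8310-fold), from adenomas by −11.15 and from small intestine by −13.31. Its CT26 level was near the detection limit, so the exact size of these gaps is uncertain. The brighter Muc4 probe was at least 403-fold lower than in colon and at least 691-fold lower than in adenomas, bounds set by the detection limit. The dimmer Muc4 probe, which read CT26 replicate 1 above background, was at least 8.58-fold lower than in colon and at least 11.5-fold lower than in adenomas, so the probes disagree on the size of the gap. Muc16 was at least 7.01-fold lower than in colon and was not well above background in CT26. Muc20 in CT26 differed from colon by −1.51 with overlapping arrays, from adenomas by −2.19 and from small intestine by −0.061, again with overlapping arrays. Without colon replicate 3 the differences from colon were −12.53 for Muc13 and −0.92 for Muc20, no longer past 1.2, the bounds were 591-fold for the brighter Muc4 probe and 4.74-fold for Muc16, and the dimmer Muc4 probe differed by −3.43, so that 3 genes were past 1.2. The secreted mucin Muc2, the main gel-forming mucin of goblet cells, was also not well above background on any CT26 array, and the 8 goblet cell genes had medians from −5.96 to −5.66 there.

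The other genes of mucin biology were followed in lists, each gene counted where any of its probes was called. Of 10 genes of the brush border and of microvillus adhesion, 10 fell in adenomas against small intestine, where 12.1% of all genes were called lower. Their median log2 difference was −2.50, where the median over all probes was −0.15. Among them were Pls1 (fell by 3.35) and Espn (fell by 3.23), which bundle actin in microvilli, and the protocadherins Cdhr5 (fell by 2.72) and Cdhr2 (fell by 2.60), which link microvillus tips. Against adjacent tissue 2 of the 10 fell, against colon 0 of 10, and between adjacent tissue and small intestine 0 of 10. The shares of all genes called lower there were 2%, 1.74% and 0%. The median epithelial level given above moved in the same direction, and its part was not tested.

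Of 5 secreted mucins, 4 were tested between adenomas and small intestine and 2 rose, where 12.2% of all genes were called higher. Muc6, a gland mucin of the stomach, rose by 8.53 (limma adjusted p = 0.000347), with 1 of 3 small intestine arrays reading it above the detection limit, and Muc5ac, the surface mucin of the stomach, rose by 3.09 (limma adjusted p = 0.000349). Muc2 differed by −0.40 (limma adjusted p = 0.263). Muc6 and Muc5ac entered this test through adenomas alone, so their p-values are set in part against background. Against the detection limit Muc6 rose at least 131-fold and Muc5ac at least 8.53-fold, the latter with 2 of 3 small intestine arrays above background. Muc6 rose also against adjacent tissue (by 6.25, or 76.2-fold). Both rose against colon, Muc6 at least 150-fold, with 0 of 3 colon arrays above background, and Muc5ac at least 9.86-fold, with 2 of 3. The 8 gastric genes, which include Muc5ac and Muc6, had medians of 3.88 to 4.15 in adenomas, −2.12 to −1.81 in adjacent tissue and −7.08 to −2.28 in small intestine. Of the other cell surface mucins, 4 were tested and 3 rose in adenomas against small intestine, namely Podxl (at least 6.00-fold, with 1 of 3 small intestine arrays above background), Emcn (by 2.12) and Mcam (by 1.93), all known from endothelium or vessel walls, and 0 of 4 were called against adjacent tissue. Muc12, Muc17, Muc3a and Muc21 had no probe under these names.

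Among 13 receptors, galectins and cytoplasmic partners of transmembrane mucins, 0 rose and 2 fell in adenomas against small intestine, Pdzk1 (fell by 5.39), a scaffold of apical transporters, and Erbb3 (fell by 1.32), a partner of ERBB2, which is near the 12.1% of all genes called lower. Erbb2 itself, the receptor that MUC4 binds, differed by −1.02 (limma adjusted p = 0.00251) and missed the fold threshold. Among 19 enzymes of mucin type O-glycans, 2 rose and 2 fell. Both counts are near the shares over all genes tested, 12.2% higher and 12.1% lower. Galnt3 and Galnt12, which add the first sugar, rose by 1.43 and 1.23. St3gal1, a sialyltransferase, fell by 1.98, and Galnt6, an enzyme of the first step too, fell by 1.21 on a probe other than its brightest. Of 5 sheddases, which release ectodomains from the membrane, Mmp14 rose by 3.64, Adam9 rose by 1.33 and Mep1b, a brush border metalloprotease, fell by 3.11.

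Of 14 transcription factors that act on intestinal mucin genes, 2 rose and 5 fell in adenomas against small intestine. Over all genes tested 12.2% were called higher, near the share of these that rose, and 12.1% lower. Klf4 fell by 3.06, Cdx1 fell by 1.75 and Cdx2 fell by 1.41, all regulators of epithelial differentiation, and Foxa1 rose by 1.85. As Cdx1 and Cdx2 fell in the comparison in which Muc13 fell, the 250 bases before the RefSeq starts of the members were searched on both strands for TTTATG (CDX), AGATAA for GATA factors and GGGCGG for the GC box, which do not overlap each other in the windows shown. The windows of all 5 genes were found, with 2 starts for Muc13. They are in GRCm38.p6, credited to RefSeq, and capitals mark the matches.
Muc13, first start, chr16:33793787-33794036, plus strand: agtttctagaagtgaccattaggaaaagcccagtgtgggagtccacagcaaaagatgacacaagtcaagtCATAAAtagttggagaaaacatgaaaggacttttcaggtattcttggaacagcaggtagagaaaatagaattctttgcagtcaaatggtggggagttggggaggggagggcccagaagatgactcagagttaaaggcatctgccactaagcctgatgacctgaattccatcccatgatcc
Muc4, chr16:32735636-32735885, plus strand: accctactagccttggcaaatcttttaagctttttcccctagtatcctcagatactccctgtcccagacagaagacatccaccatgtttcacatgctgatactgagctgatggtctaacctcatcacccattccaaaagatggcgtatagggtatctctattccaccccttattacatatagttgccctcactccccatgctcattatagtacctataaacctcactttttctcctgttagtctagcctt
The window of the first Muc13 start held 1 CDX match, beginning 180 bases before the start. The window of the second Muc13 start and the Muc4, Muc20 and Muc16 windows held none of these letters, and the Muc1 window held 2 GC boxes. Of 32851 windows of this length, 10.8% held the CDX letters, 9.99% the GATA letters and 32.7% the GC box. A match is a description of the letters and not a bound site.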

How the data were processed

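Agilent one-colour arrays of 14 samples were used: small intestine (3), adjacent tissue (2), adenoma (3), colon (3) and CT26 (3). For every sample the authors deposited a scanner file. Per the file headers it came from Feature Extraction 10.7.3.1, and its processed signal is a background-corrected intensity that is not yet normalized across arrays. A further deposited table holds log2 values normalized by the authors, with a method not given in the sources used here. Its 28 further per-sample columns were not used, nor were its columns of fold changes and p-values between groups.

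Control spots and outlier spots (103 to 206 per array) were left out, each log2 signal was set relative to its array's 75th percentile, and repeated spots of a probe were averaged. Each pair of groups was fitted on its own arrays with limma 3.58.1 in R 4.3.3, with Benjamini-Hochberg adjustment over the probes that all arrays of 1 or both groups measured well above background. A gene was called when any probe passed both thresholds, 1.2 for the size of the log2 difference and 0.01 for the adjusted p. Each gene was read from its probe of highest mean signal. Of 55681 probes, 26582 were named through RefSeq accessions and 29099 kept the file's name. The method was run on simulated data with a spread far below that of the arrays, so this run gives no error rates for the real arrays. The number of arrays limits the precision.

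Members and gene lists were chosen with earlier results of these data known. All probes of the members were named. Of each list, genes past the thresholds could be named, at most 4 per comparison and the largest first, with calls in comparisons other than adenoma against small intestine mostly left as counts. Genes that are described although they missed a threshold (Erbb2, Muc2) or were singled out from a marker list (Ptprc, S100a8, S100a9, Cd68) were chosen after their values were seen. The 3 genes with the highest Pearson correlation over the tissue arrays were named for each member except Muc1. No group measured Muc1 well above background on all of its arrays. Marker lists also covered smooth muscle, epididymis and fibroblasts. Their medians were 3.58 to 5.31, −6.43 to −5.93 and 0.56 to 2.33 in small intestine and 2.82 to 2.98, −6.74 to −5.78 and 3.71 to 3.89 in adenomas. The arrays lay on 2 slides, each scanned once and each holding all 5 groups. Alternatives were the background correction, the normalization, the filters, the slide or replicate number as a block, a joint fit, the thresholds and leaving out each array.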

Additional observations from a re-analysis of the deposited data

How the results depend on the processing

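Between adenomas and small intestine Muc13, Muc4 and Muc20 kept their direction and their call under every alternative run (log2 differences of −2.37 to −1.75, 2.54 to 2.82 and 1.57 to 2.24). Of 310 values of single genes under an alternative, 285 were unchanged, 17 lost the call, 4 gained it and 4 reversed. Unchanged meant the same direction and call. For Muc13 in the colon comparisons, which had no call, it meant the same direction and a shift below the pooled SD of both groups. The reversals came from leaving out 1 array. Between colon and small intestine Muc16 then ran from −1.18 to 0.38 and turned positive without small intestine replicate 2 (0.38) and without colon replicate 2 (0.23), and Muc13 ran from −0.78 to 0.027, positive without colon replicate 2. Between adenomas and colon Muc20 ran from −0.062 without colon replicate 1 to 1.27.

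The count between adenomas and adjacent tissue (1 gene) was least firm. It was 2 with normexp, where Muc13 was also called (limma adjusted p = 0.00847), 3 at an adjusted p of 0.05, and 0 without the filter on dim probes, with 1 fit of all 5 groups and with the slide as a block. Leaving out 1 array gave 0 to 1, and the call was kept only without adjacent replicate 2. The cause was not tested. Between colon and small intestine, and between adenomas and colon, leaving out 1 array gave 0 to 1 genes. At an adjusted p of 0.05 the second of these counts was 1, Muc16. Between adenomas and small intestine leaving out 1 array gave 3 to 4 of 4 genes, and so it did between CT26 and colon. Between adjacent tissue and small intestine it gave 0.

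Deviations of samples with the same replicate number correlated from −0.0947 to 0.116 between adenomas and small intestine from −0.0355 to −0.00986 between adenomas and adjacent tissue, from 0.141 to 0.291 between adjacent tissue and small intestine (2 pairs), from 0.0112 to 0.238 between colon and small intestine and from −0.322 to 0.0099 between adenomas and colon. In no comparison of 3 pairs was every correlation over 0.1. The highest value, 0.291, was between adjacent tissue and small intestine, which come from different mice. Between adenomas and adjacent tissue the numbers in the sample titles gave 0.0355 and 0.0257. With 2 adjacent arrays the deviations of that group mirror each other. This check therefore cannot decide on pairing, and the samples were fitted as unpaired. With the replicate number as a block the counts were 3 genes between adenomas and small intestine, without Muc16 (limma adjusted p = 0.0111), and 0 between adenomas and adjacent tissue (Muc20, 0.0200), and also 0 with the numbers in the sample titles as a block (0.0776). Every scaling left the median of all probes within 0.2 of 0 in the tested comparisons, and the authors' table moved that between adenomas and small intestine from −0.15 to −0.04. Signal near background limits Muc16, Muc1 and the CT26 value of Muc13, and the number of arrays limits adjacent tissue.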
